A study of Apis mellifera with 9 samples.

Results

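Long-span circRNAs of coding genes were circular RNAs whose 2 joined ends lay more than 10000 bases apart in the genome and whose single source gene was protein-coding. They were picked by the position given for each back-splice junction, with the span taken as end minus start plus 1, and by the biotype of the source gene, so that no expression value entered the choice among the listed circRNAs. The rule found 2396 members among 11794 listed circRNAs, from 586 host genes. A further 4947 circRNAs of coding genes had spans of 1000 to 10000 bases (called middle-span here) and 2360 had shorter spans (called short). Of the 3045 listed circRNAs with a span above 10000 bases, 501 had no source gene, 44 came from other kinds of gene and 104 had 2 or more source genes, and none of these were members. The shortest members spanned 10002, 10010 and 10013 bases, in LOC725964, LOC726101 and LOC408631, and the closest circRNAs left out spanned 9985, 9980 and 9980 bases, in LOC410775, LOC409792 and LOC100576830.

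The samples were ovaries of worker honey bees (Apis mellifera), collected 4 days after newly emerged bees had been marked and put back in their colonies. There was 1 group of 3 pools, each made from 40 ovary pairs of workers of a single colony, out of 5 colonies with sister queens, with no genotype contrast and no treatment. Each pool number had an RNA-seq library and a circRNA library. For the circRNA library the RNA had been depleted of rRNA and digested with RNase R, an enzyme that degrades linear RNA. The study set out to list the RNAs of this organ, so the comparisons here are between span classes, between host genes and between pools.

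A circRNA forms by back-splicing, in which the end of an exon is joined to the start of the same exon or of an exon further upstream. The closed ring has no free end for exonucleases, and many circRNAs of animals are therefore stable and are made from genes that also give a linear mRNA. The genomic span runs from the start of the upstream exon to the end of the downstream exon. It counts the introns in between, most of which are usually spliced out, so it is not the length of the ring. In adult workers with a queen the ovary is a small organ that is mostly inactive, and it holds germ cells, follicle and sheath cells, muscle and tracheae.

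Levels of circRNAs are given as SRPBM, the authors' count of back-spliced reads scaled to the mapped reads of the library. A junction was called detected in a pool where its SRPBM was above 0. Every listed circRNA was detected in at least 1 of the 3 pools. Each share detected is therefore taken over circRNAs already seen in these libraries. Host mRNA levels are given as FPKM, fragments scaled to exon length and library size. Each value with an SD is a mean over the 3 pools, and where 3 values are listed they belong to pools 1, 2 and 3 in that order. Each pool came from 1 colony with 1 library of each kind, so differences between pools cannot be told apart from differences between colonies or libraries.

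Detected circRNAs numbered 7009, 6373 and 8344 in the 3 libraries. All SRPBM values were whole multiples of a step of 10.8, 12.1 or 10.4 SRPBM (within 0.001 step), the smallest value above 0 was 2 steps, and the values of a library summed to 1280622 to 1368419 steps. No source used here says whether 1 step is 1 read, so no counting interval was attached to SRPBM. In the RNA-seq libraries pool 1 was deeper than pools 2 and 3 by factors of 1.15 and 1.20. All 6 germ line markers stood above 1 FPKM, with summed levels of 191 to 228 FPKM, among them vas, an RNA helicase of germ cells, at 18.1, 25.4 and 26.6 FPKM. The muscle list (14 genes, 1 of them below 1 FPKM) summed to 1504 FPKM in pool 1 and to 768 and 699 FPKM in pools 2 and 3. The gut list (11 trypsin and chymotrypsin genes, 4 below 1 FPKM) summed to 111 FPKM in pool 1 and to 8.46 and 10.7 FPKM in pools 2 and 3. Of the 5 neuron markers, both vesicular acetylcholine transporters were below 0.1 FPKM in every pool, while Syt1, a calcium sensor of vesicle release, stood at 28.6, 24.2 and 21.9 FPKM. The 9 major royal jelly protein genes summed to 17.0 to 25.3 FPKM, with 4 of them below 1 FPKM. In such pooled tissue, fewer cells of a type and less RNA per cell cannot be told apart.

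Long-span circRNAs were lower and less often detected than middle-span circRNAs in each of the 3 pools, and their share of the summed signal was below their share of the listed circRNAs. The median SRPBM of detected members was 442, 519 and 292, against 550, 700 and 397 for detected middle-span circRNAs. The difference of medians was -0.31, -0.43 and -0.44 on the log2 scale, a mean of -0.40 ± 0.07 (SD, n = 3). This mean was several times its SD, yet the two-sided exact sign-flip permutation test gave p = 0.25, the smallest value that 3 pools allow. Short circRNAs had medians of 529, 706 and 386 SRPBM, close to those of the middle-span class.

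Members were detected in 58.3%, 54.0% and 69.5% of cases in pools 1 to 3, against 63.0%, 57.9% and 73.3% of middle-span circRNAs. The difference was -4.78, -3.95 and -3.80 percentage points, with a mean of -4.18 ± 0.53 points (SD, n = 3; exact sign-flip permutation p = 0.25, the smallest possible). Set against short circRNAs instead, it was -1.60 ± 1.38 points. Over all listed circRNAs 59.4%, 54% and 70.7% were detected, so the share of members was near that of the whole table and lower mainly beside the middle-span class. Members were 20.3% of all listed circRNAs and held 13.2%, 12.3% and 12.9% of all summed SRPBM, against 51.5% to 52.6% for the middle-span class. Among the circRNAs of coding genes they were 24.7% and held 14.6%, 13.6% and 14.3% of the sum. The summed shares of a class differed far less between pools than between classes, whereas level and detection moved more between pools than between classes, as the plot of the span classes shows.

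**Figure D1:**
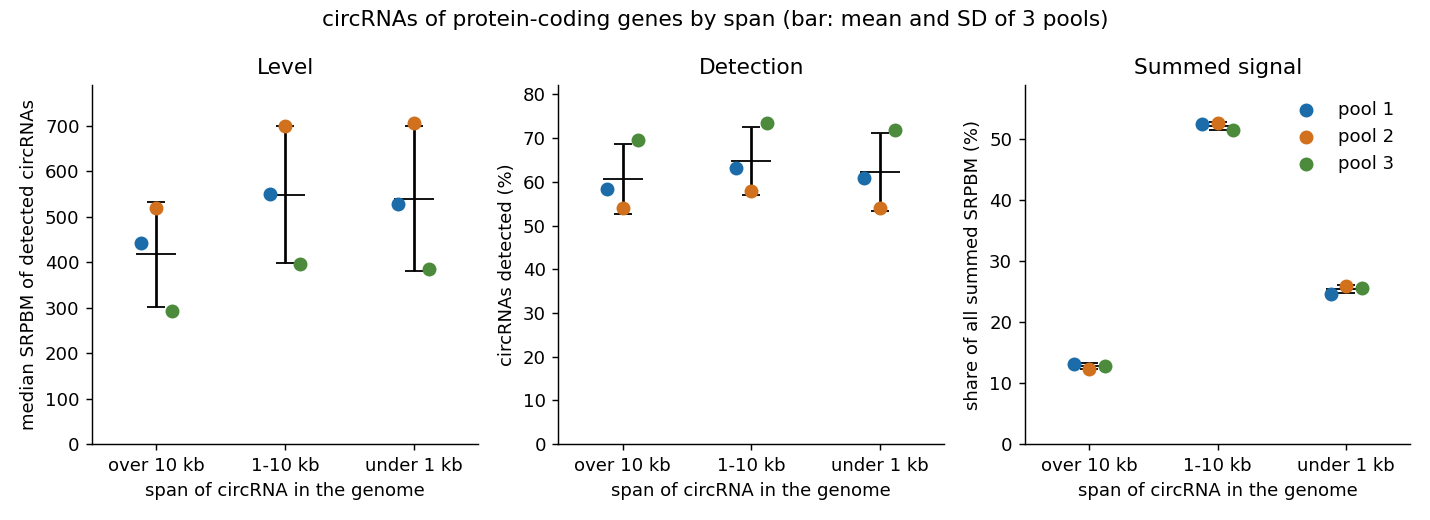
circRNAs of protein-coding genes with spans over 10 kb, of 1 to 10 kb and under 1 kb (x axes), with their median SRPBM where detected, the percent detected, and their percent of all summed SRPBM (y axes). Points are the 3 pools, and bars are the mean and SD over pools. Long-span circRNAs had medians of 292 to 519 SRPBM, below those of middle-span circRNAs in the same pool (397 to 700).

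Detection was uneven over pools. Of the 2396 members, 733 (30.6%) were detected in all 3 pools, 493 in 2 pools and 1170 in a single pool. Among all listed circRNAs, members included, 32.4% were detected in all 3 pools, close to the share of members. The other classes of coding circRNAs had higher shares, 37.4% for middle-span and 34.1% for short circRNAs. The 733 held 88.3% of the summed level of members, while the 1170 seen in 1 pool held 5.37% of it. Over all listed circRNAs these 2 shares were 92.3% and 3.40%, and over middle-span circRNAs 93.8% and 2.51%. Members seen in a single pool numbered 344, 291 and 535 for pools 1 to 3, with median SRPBM of 243, 265 and 167 there. Only 10 of the 1170 reached 1000 SRPBM, against 34 of the 5687 listed circRNAs seen in 1 pool. The highest of the 10 was a junction of LOC410718 (LG1:13450956-13490069, an uncharacterized protein) with 0, 4028 and 0 SRPBM. The next 2 both came from LOC412993, a kainate-type glutamate receptor subunit, with 3453 and 2039 SRPBM in pool 1 and 0 in the other pools.

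Spans had a median of 23601 bases, with quartiles at 14869 and 42065 bases, and the longest reached 194416 bases. A member covered 24.1% of its host gene at the median. The longest listed circRNA of any kind spanned 197869 bases. Detection in all 3 pools fell off with span, and the median level was lowest in the 2 longest bins in each pool. The 983 members of up to 20000 bases had median SRPBM of 486, 561 and 303 where detected, and 33.5% were found in all 3 pools. Those of 20000 to 50000 bases (949 members) had medians of 453, 531 and 313, and 29.7% were found in all 3 pools. The 359 members of 50000 to 100000 bases had medians of 367, 410 and 277, with 27.6% in all 3 pools. Beyond 100000 bases there were 105 members from 55 hosts, with medians of 345, 434 and 183 and 21.9% in all 3 pools. Member by member the relation was loose: Spearman's rho between span and mean SRPBM was -0.09 over all 2396 members and -0.04 over the 733 detected in all 3 pools, where members of 1 host share their transcript.

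**Figure D2:**
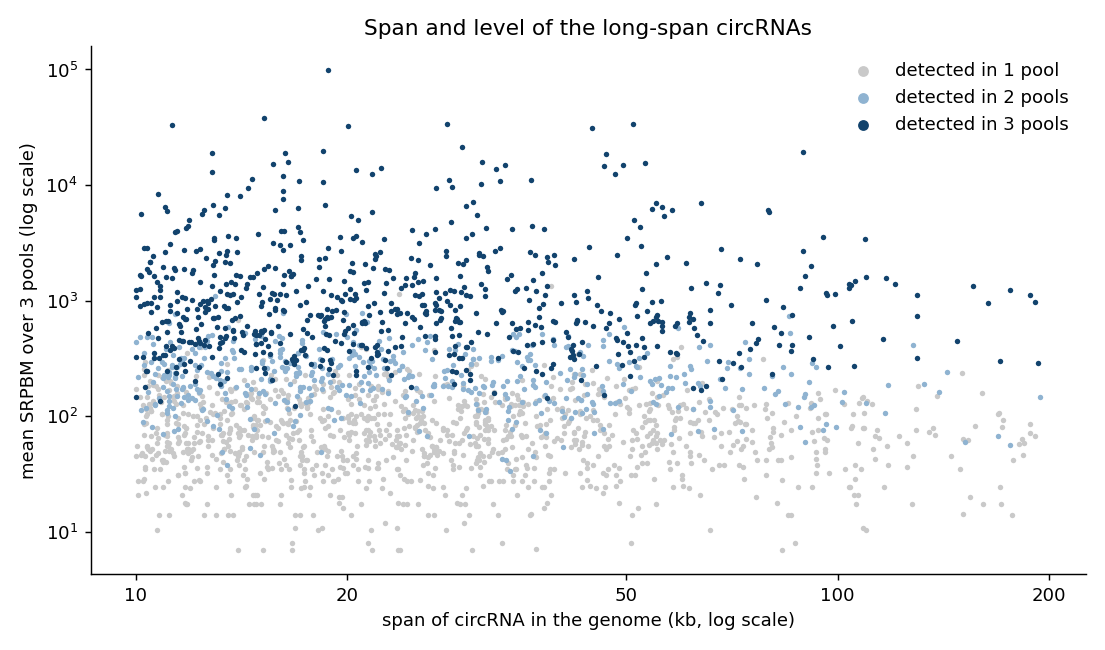
Genomic span of each long-span circRNA (x axis, kb, log scale) and its mean SRPBM over 3 pools (y axis, log scale), one point per member, coloured by the number of pools with detection. Members detected in all 3 pools fill the upper part at every span, and none of the 105 members beyond 100000 bases had a mean above 3410 SRPBM.

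The members with the highest mean SRPBM came from 14 hosts and were steady over pools. The 15 highest held 24.0% of the summed level of all members, and for each of the 15 the highest pool was between 1.10 and 1.56 times the lowest. The first of them stood apart. It was a circRNA of LOC411586, an uncharacterized protein, at LG7:1604033-1622820 on the plus strand, with 102016, 110865 and 84279 SRPBM. At 99054 ± 13538 SRPBM (SD, n = 3) it was 2.62 times the next member and ranked 11 among all listed circRNAs. Its host mRNA stood at 48.5, 190 and 118 FPKM, lowest in pool 1, while the circRNA was lowest in pool 3. Another 4 long-span circRNAs of LOC411586 were detected in all 3 pools, and the highest of them (LG7:1604033-1654071), which begins at the same position, had 3496, 4463 and 2528 SRPBM.

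Several of the next highest came from genes with a mean mRNA level below 10 FPKM. LOC410694, which encodes the transcription factor collier, known in Drosophila for roles in muscle and blood cell identity, gave a circRNA at LG1:28847554-28862777 with 38983, 41321 and 32985 SRPBM, from an mRNA of 7.20, 5.38 and 5.85 FPKM. AChE-2, an acetylcholinesterase, the enzyme class that breaks down acetylcholine, gave one at LG8:8549471-8600528 with 25830.5, 35749 and 39962 SRPBM, from an mRNA of only 3.10, 3.38 and 4.23 FPKM. Here pool 1 was the lowest for both circRNA and mRNA. LOC551647, an uncharacterized protein, had 30891, 33277 and 33977 SRPBM at LG1:20625503-20645553, with the smallest ratio between pools of the 15, beside an mRNA of 4.68 ± 0.42 FPKM (SD, n = 3). LOC408715 encodes a hemicentin, a large extracellular matrix protein, and its circRNA at LG2:3616676-3706044 reached 19907, 16729 and 21370 SRPBM over a span of 89369 bases, the longest of the 15, with an mRNA of 3.72 ± 0.36 FPKM. In all, 5 of the 14 hosts had a mean below 10 FPKM, the fifth being LOC408688. The median over all 586 long-span hosts was 10.8, 11.8 and 12.1 FPKM. Such levels were therefore not particular to the hosts of the highest members.

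LOC408688 is named for Dscam, a family of immunoglobulin-type adhesion proteins, and its circRNA at LG2:10820531-10831810 had 34764, 33687 and 30405 SRPBM. LOC410662, named for lachesin, an immunoglobulin-type protein of epithelial junctions in Drosophila, gave 2 of the 15, at 31285 ± 2430 and 19775 ± 2774 SRPBM (SD, n = 3), on a scaffold with no linkage group. They shared their upstream end and had spans of 44628 and 18477 bases. LOC408536, an angiotensin-converting enzyme-like peptidase, had 29995, 38788 and 32463 SRPBM at LG15:5347404-5375154, although it was the second highest of the 18 circRNAs of that gene, whose long-span members held 11.3% of the host's summed level.

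The remaining 6 ranged from 15722 to 21409 mean SRPBM. They came from LOC410006 (uncharacterized), LOC409795 (telomerase-binding protein EST1A-like, in human an endonuclease of nonsense-mediated decay), LOC410517 (FAM20C-like, a kinase of secreted proteins in mammals), LOC411452 (band 4.1-like, of a family linking membrane and cytoskeleton), LOC551069 (diacylglycerol kinase 1, which makes phosphatidic acid) and LOC410233 (extracellular sulfatase SULF-1 homolog, which trims sulfate from heparan sulfate). Pool 2 was the highest for 3 of them (LOC410006, LOC409795 and LOC410233), pool 3 for 2 and pool 1 for LOC410517. A member was the highest circRNA of its host in 8 of these 15 cases.

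**Figure D3:**
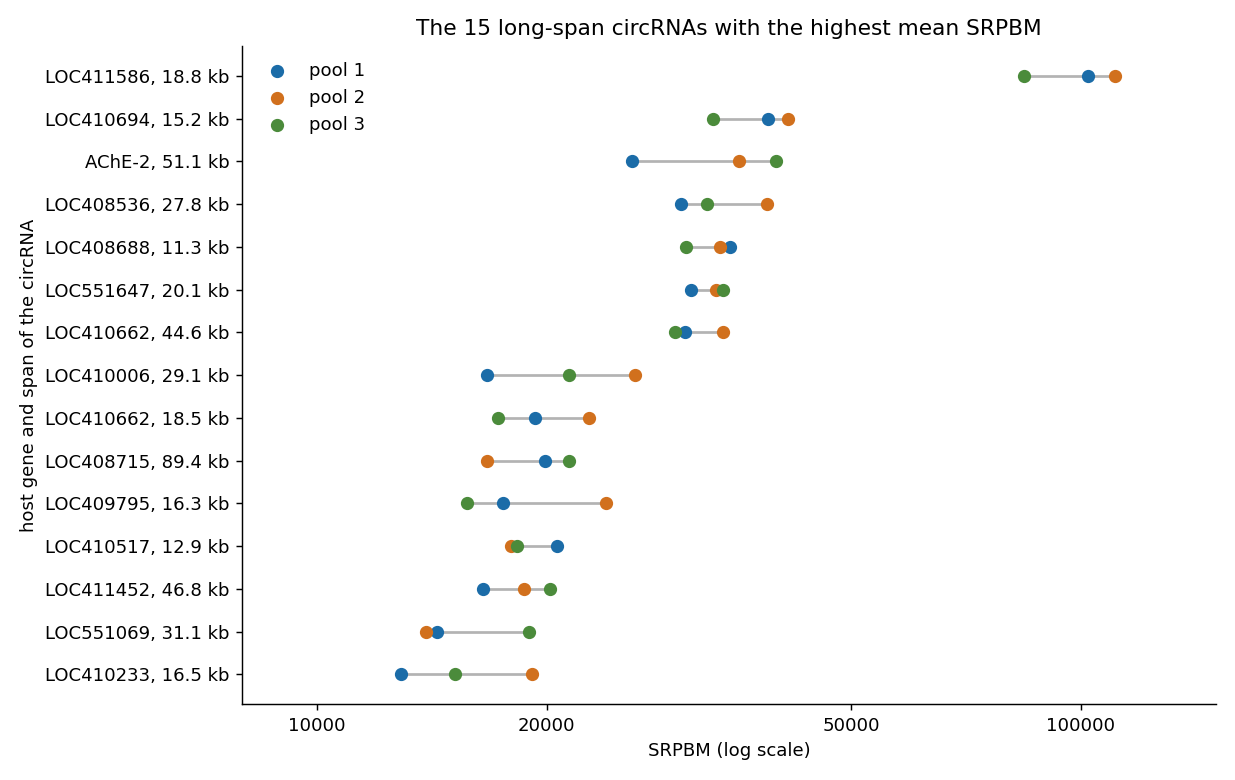
SRPBM in each pool (x axis, log scale) of the 15 long-span circRNAs with the highest mean, named by host gene and span (y axis). Points are the 3 pools, joined by a grey line. The circRNA of LOC411586 lies at 84279 to 110865 SRPBM, above all values of the other 14.

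Nearly all members lay inside their host gene. Both ends fell between the start and end of the host for 2394 of 2396 members (99.9%), against 4941 of 4947 middle-span circRNAs. The rule had left out 501 junctions above 10000 bases with no source gene and 104 with 2 or more. Both shares therefore describe only junctions already assigned to 1 coding gene, and the choice itself favours a high share. The 2 exceptions were each seen in 1 pool. One, of LOC724783, ran over LG6:3282440-3300494 beyond the end of its host at 3288606 and had 518 SRPBM in pool 1. The other, of LOC100576508, lay at LG13:1295814-1317989, wholly past its listed host (1283222 to 1290556), with 519 SRPBM in pool 2. Another 4 members were assigned to the strand opposite to the host, of LOC724195, LOC409782 and LOC411078 (2), each in 1 pool and at 53.9 to 374 SRPBM. That is 0.17% of members, against 0.99% of middle-span circRNAs.

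Members tended to lie toward the 3′ side of their gene. Of the gene sequence outside the circle, 70.9% lay upstream at the median, with 53323 bases upstream and 20693 bases downstream. More sequence lay upstream than downstream for 1661 of 2390 members (69.5%), against 3652 of 4892 middle-span circRNAs (74.7%). A member began at the annotated gene start in 16 cases and ended at the annotated gene end in 18.

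Long-span circRNAs were built from a shared set of ends. Counting the upstream end of a circle on its strand as its 5′ edge and the downstream end as its 3′ edge, the 2396 members used 1409 distinct 5′ edges and 1610 distinct 3′ edges. Another member shared the 5′ edge of 64.1% of them and the 3′ edge of 53.8%, and 413 members shared neither. Any circRNA of a coding gene shared an edge with 94.9% of members, against 79.1% of middle-span circRNAs. In the 515 hosts that gave both classes the shares were 96.3% of 2245 members and 91.3% of 2661 middle-span circRNAs. The part of the number of circRNAs per host in this was not tested.

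AChE-2, picked after its values were seen, is an example of this layout. Its gene lies at LG8:8535189-8669821 on the minus strand and gave 11 members, of which 8 were detected in all 3 pools, and they held 89.4% of the summed level of its 14 circRNAs. The 5′ edges 8600528 and 8568048 were each combined with the 3′ edges 8553988, 8549471 and 8546046, and all 6 combinations were detected in every pool. From the upstream edge 8600528 the circle to 8549471 was the highest, at 33847 ± 7255 SRPBM, followed by that to 8553988 at 14597 ± 2170 and that to 8546046 at 6253 ± 2657 (SD, n = 3 each). From the downstream edge 8568048 the order of the first 2 was turned around in pools 2 and 3: the circle to 8553988 had 6021, 8539 and 9766 SRPBM and that to 8549471 had 6085, 7852 and 6142 SRPBM. The circle to 8546046 was again the lowest, with 2061, 2521 and 2705 SRPBM. A further circle joined 8600528 to 8567896 and reached 13692 ± 2402 SRPBM.

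Cac, the pore-forming subunit of a voltage-gated calcium channel, had the most used 5′ edge. Its members numbered 32, and 17 began at LG3:1091331 and ended at 17 different 3′ edges 48536 to 99048 bases downstream. These 17 carried 90.6%, 93.5% and 93.2% of the long-span level of Cac in pools 1 to 3. The circle to 1140732 had 14814, 15704 and 14685 SRPBM, and that to 1147948 had 6959, 4969 and 4387 SRPBM. The circle to 1159621 had 2482, 3823 and 2120 SRPBM. These 3 made up 77.2% of the long-span level of the gene. Of the 17, 10 were detected in all 3 pools, 1 in 2 pools and 6 in a single pool, and the mRNA of Cac stood at 4.91 ± 0.45 FPKM. Other edges shared by many members were the 5′ edges at LG1:28862777 in LOC410694, LG1:19941353 in LOC410696 and LG6:3655768 in LOC409786, with 10 members each, and the 3′ edge at LG4:1504180 in LOC412993, with 9 members. That last position is also the annotated 3′ end of LOC412993, which lies on the minus strand.

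**Figure D4:**
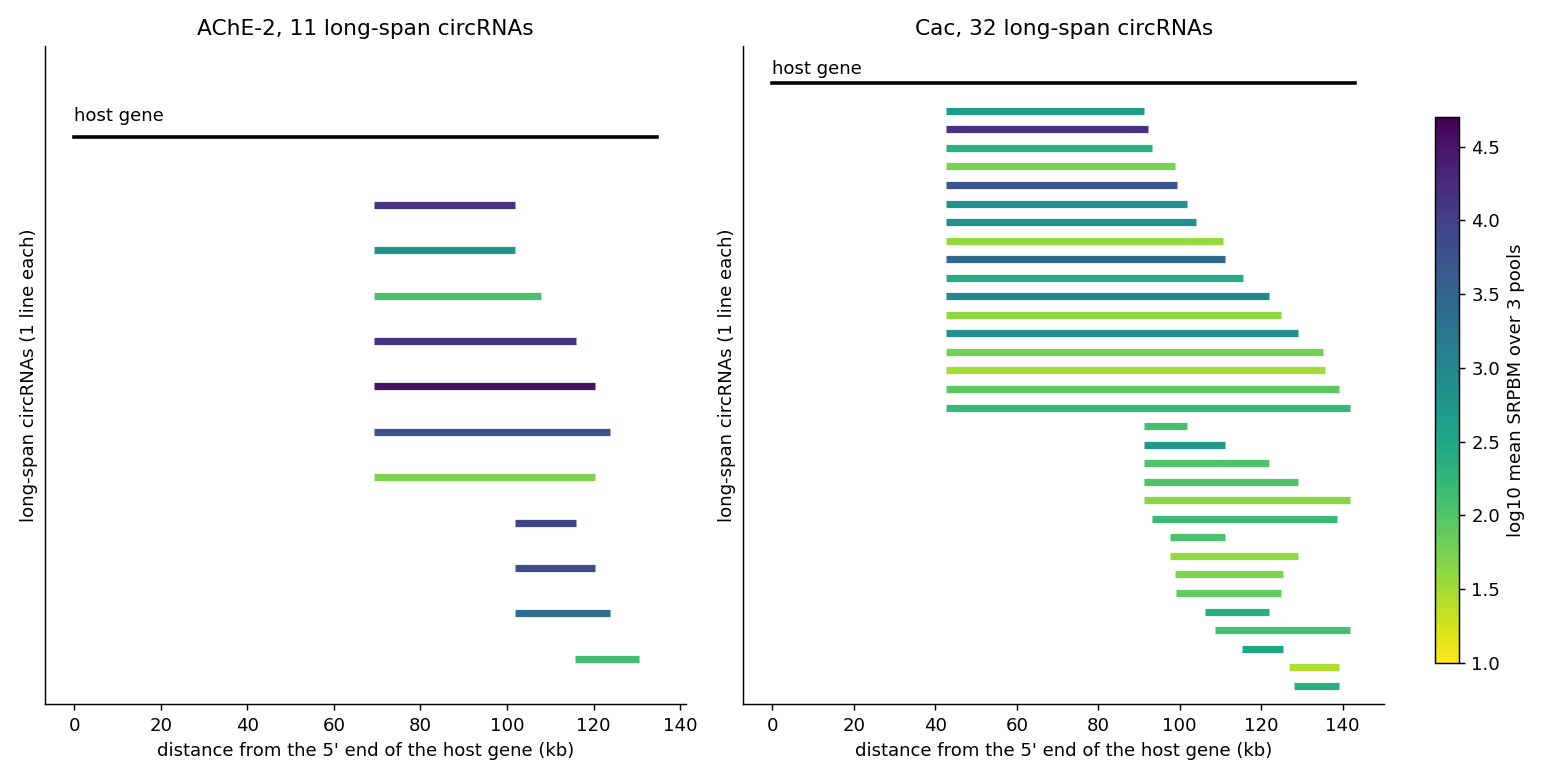
Long-span circRNAs of AChE-2 (11, left) and Cac (32, right), drawn to scale as distance from the 5′ end of the host gene (x axis, kb), one line per circRNA (y axis) and coloured by log10 of the mean SRPBM over 3 pools. The black line is the host gene. Circles of AChE-2 begin mostly at 2 positions, and 17 of the 32 circles of Cac begin at a single position.

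Host genes differed widely in how many members they gave. A single member came from 204 of the 586 hosts and 2 from 109, while 56 hosts with 10 or more members gave 869 members (36.3%). The number of members per host went with the span of the gene (Spearman's rho 0.38 over 586 hosts) and hardly with the mRNA level (rho 0.04), both descriptions over genes of the same libraries. The 10 hosts with the most members gave 20 to 36 each. LOC410696, named for ADAMTS-like proteins of the extracellular matrix, gave 36, of which 19 were detected in all 3 pools. Its highest were at LG1:19941353-19994585, with 13131, 13979 and 19772 SRPBM, and at LG1:19972664-20020861, with 16497, 10023 and 11051 SRPBM. The pools ranked these 2 circles in different orders.

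LOC409786, which encodes FH1/FH2 domain-containing protein 3, a formin that shapes actin filaments, gave 35 members. None of them averaged above 2859 SRPBM, although its mRNA stood at 50.1, 75.7 and 97.1 FPKM. Cac followed with 32. LOC552377, diacylglycerol O-acyltransferase 1, which makes triglyceride, gave 27, led by LG13:3479448-3509709 with 8092, 8310 and 5149 SRPBM, lowest in pool 3. LOC412993, the kainate 2-like glutamate receptor subunit, gave 26, and these held 87.8% of its summed circRNA level. LOC411046, a KAT6B-like histone acetyltransferase, gave 21. Its 4 highest all began at LG4:4139476, led by the one ending at 4154128 with 5934, 14232 and 14017 SRPBM, and pool 1 was the lowest of the 3 pools for each of the 4. The other hosts among these 10 were LOC725964 (22, uncharacterized), LOC413968 (21, dystrophin, which ties actin to the matrix, with 102.6 ± 7.82 FPKM), LOC551647 (20) and LOC410498 (20, a potassium channel of 1.91 ± 0.24 FPKM).

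The mRNA of long-span hosts was lower than that of the other coding genes that gave circRNAs. The median log2(FPKM + 1) of the 586 hosts was 3.56, 3.67 and 3.71, against 4.11, 4.21 and 4.19 for 1533 other hosts. The mean difference was -0.52 ± 0.04 (SD, n = 3; exact sign-flip permutation p = 0.25, the smallest possible). Long-span hosts had longer genes, 86695 bases at the median against 15294 bases. Against the 1017 other hosts with a gene above 10000 bases, a set chosen after the values were seen, the difference was -0.35 ± 0.03. The median gene span of those 1017 hosts was 23321 bases, so gene length was still not matched. Among long-span hosts 49 had a mean below 1 FPKM, and these gave 120 members. Across members, SRPBM and host mRNA were almost unrelated, with Spearman's rho of 0.08, 0.04 and 0.04 in pools 1 to 3 over 2396 members, many of which share a host. Members not detected in a pool entered at 0 SRPBM, so this rho mixes detection with level. A rho over detected members alone is not given.

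Within hosts the long-span circles were lower than the middle-span circles of the same gene. In the 515 hosts with both classes, the median over hosts of the difference in mean log2(SRPBM + the smallest value above 0 of the library) was -1.004, -1.013 and -1.167, a mean of -1.06 ± 0.09 (SD, n = 3; exact sign-flip permutation p = 0.25, the smallest possible). Its size rested on the measure: it was -0.65 with a pseudocount 10 times as large and -1.996 with the highest circle of each class in place of the mean. The sign was the same in all 3 pools for 290 hosts, lower in 235 and higher in 55. The highest circRNA of the host was long-span in 85 of the 515 hosts, middle-span in 312 and short in 118. In 131 hosts the summed level of long-span circles exceeded that of middle-span circles. Over all 586 hosts, long-span members held 16.0% of a host's summed circRNA level at the median and more than 50% in 140 hosts.

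Hosts were grouped by words in the product name, which in the deposited table is the closest protein match. A host whose name lacks the words stays outside its group, whatever its function: tensin-1 (LOC408429), band 4.1-like LOC411452, the formin LOC409786 and the lachesin-like LOC410662 and LOC410888 are in none of the cytoskeleton and adhesion counts, and orders within a group cover its matched names only. Names that only mention a receptor or kinase match as well. Examples are nuclear receptor coactivator 3-like (LOC410637) and protein kinase C-binding protein NELL1-like (LOC411748). Hosts with receptor in the name were the largest named group, with 47 of 586 long-span hosts (8.02%) against 62 of the 1017 other hosts with a gene above 10000 bases (6.10%). They gave 193 members, of which 53 were detected in all 3 pools. The highest were of LOC412993, with 6172, 10879 and 7437 SRPBM, of LOC102655143, a hormone receptor 4-like nuclear receptor, with 4801, 7996 and 5390, and of 5-HT2beta, a serotonin receptor, with 7369, 4897 and 5233. Pool 2 was the highest for LOC412993 and LOC102655143, and pool 1 for 5-HT2beta. Transcription factors came to 34 hosts (5.80%, against 4.23%), at a median mRNA level of 3.96 FPKM, below the other named groups. After collier their highest members were those of LOC726298, named for SOX-15, at 15188 ± 1773 SRPBM and of LOC551432, a zinc finger and BTB domain protein, at 10715 ± 490 SRPBM (SD, n = 3 each).

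Adhesion and guidance proteins were 26 of the long-span hosts (4.44%), against 15 (1.47%) of the other hosts with a gene above 10000 bases. Of the 3 matched hosts with the highest members, each carries the Dscam name. After LOC408688 came LOC412859, with 1090, 5029 and 2538 SRPBM, and Dscam itself, with 3873, 1387 and 2872 SRPBM. LOC412859 was lowest in pool 1, and Dscam was highest there. Ion channels were 13 hosts (2.22%, against 1.57%) with 109 members, led by Cac and by LOC408576, the potassium channel Shal, at 13519 ± 2530 SRPBM from an mRNA of 5.32 ± 0.76 FPKM. Channel hosts stood at a median of 4.91 FPKM.

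Kinases were 23 of the long-span hosts (3.92%), against 57 of the others (5.60%), and after FAM20C-like and diacylglycerol kinase the highest was LOC551895 with 2989, 3015 and 2371 SRPBM. Cytoskeletal proteins were 17 (2.90%, against 4.72%), at a median of 56.4 FPKM. Their highest members were of dystrophin, with 11739, 17392 and 15229 SRPBM, and of LOC409843, muscle myosin heavy chain, with 4445, 3281 and 2956 SRPBM. The myosin circle was highest in pool 1, where the summed muscle markers were also highest. Its host, itself on the muscle list, differed little between pools, at 72.8, 64.9 and 68.1 FPKM. The part of muscle tissue in the myosin circle was not tested. LOC408390, an ankyrin repeat protein, came next among the matched names at 2387 ± 822 SRPBM.

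Chromatin proteins (9 hosts, 1.54%, against 0.69% of the other hosts with a gene above 10000 bases) were led by KAT6B-like LOC411046. Then came LOC410758, a SWI/SNF remodelling subunit at 2836 ± 1533 SRPBM, and LOC412863, a histone demethylase 6A-like protein at 2183 ± 926. This count takes in every name with methyltransferase, such as methyltransferase-like protein 9-like (LOC551114). RNA-binding proteins (7 hosts, 1.19%, against 0.79%) were led by LOC409780, a CUGBP Elav-like splicing regulator, at 6130 ± 879 SRPBM. LOC724704, a cytoplasmic polyadenylation element-binding protein, a family of translational regulators active in oocytes, followed at 1359 ± 336. LOC410353, another CUGBP Elav-like protein, stood at 1065 ± 213. Hosts with phosphatase in the name (8 hosts, 1.37%, against 0.88%) were led by LOC410926, with a PH domain and leucine-rich repeats, at 2467 ± 779 SRPBM. Next was LOC408740, by name phosphatase and actin regulator 4, at 1628 ± 582. LOC410393, an alkaline phosphatase, was the next.

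Phosphodiesterases (5 hosts, 0.85%, against 0.49%) were led by LOC410577, an acid sphingomyelinase-like enzyme, with 1865 ± 489 SRPBM. The cyclic nucleotide phosphodiesterases LOC724389 (1603 ± 369) and LOC411288 (933 ± 436) followed. GTPase regulators (6 hosts, 1.02%, against 0.79%) included the rho GTPase-activating proteins LOC410706, at 2614 ± 602 SRPBM, and LOC410044, at 2586 ± 1011. LOC408810, a rap exchange factor, followed with 637, 241 and 240 SRPBM. Ubiquitin-related hosts were 3 (0.51%, against 1.08%), with 1903 ± 475 SRPBM for LOC409985, a ubiquitin hydrolase, and 580 ± 366 for LOC725092, an E3 ligase. The highest member of LOC412330, a ubiquitin-conjugating enzyme, was seen in pool 3 alone, at 313 SRPBM. Uncharacterized proteins made up 117 long-span hosts (19.97%, against 21.2%), led by LOC411586, LOC551647 and LOC410006. No group was tested against another, and the hosts compared were not matched on gene length.

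The 5 greatest spans among members detected in all 3 pools came with means of 292 to 1233 SRPBM, on both sides of the median of 863 SRPBM of such members. LOC413968, the dystrophin host, gave the longest, 192934 bases at LG1:24002419-24195352, with 410, 434 and 31.3 SRPBM. Its pool 3 value was the smallest of the 3 by far. LOC100578423, named for a muscle form of a nascent polypeptide-associated complex subunit, gave 191267 bases with 2255, 302 and 366 SRPBM, highest in pool 1. LOC412865, collagen XVIII of basement membranes, gave 187982 bases with 583, 1351 and 1400 SRPBM, lowest in pool 1. nAChRa6, a nicotinic acetylcholine receptor subunit, gave 175797 bases with 755, 1556 and 1389 SRPBM from an mRNA of 2.96 ± 0.25 FPKM. LOC724736, a semaphorin-1A-like guidance protein, gave 170450 bases with 345, 157 and 407 SRPBM. None of these 5 was the highest circRNA of its host.

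Members often differed between pools, apart from the 15 highest. Over the 733 members detected in all 3 pools, Pearson's r of log2 SRPBM was 0.77 between pools 1 and 2, 0.81 between pools 1 and 3 and 0.79 between pools 2 and 3. Over all 3825 listed circRNAs detected in all 3 pools it was higher for each pair, at 0.81, 0.85 and 0.84 in the same order. The highest pool was at least 2 times the lowest for 423 of the 733 (57.7%), near the background of 53.4% over the 3825 listed circRNAs detected in all 3 pools, and at least 3 times for 226 (30.8%, background 27.2%). The 2-fold share depends on the number of pools: with 1 pool left out, the remaining 2 differed 2-fold or more for 325 of 907 members without pool 1 (35.8%), 353 of 957 without pool 2 (36.9%) and 293 of 828 without pool 3 (35.4%), against 33.2%, 31.9% and 34.8% of all listed circRNAs. At or above the median level of the 733 (863 SRPBM), 162 of 367 members (44.1%) differed 2-fold or more, against 35.8% of the listed circRNAs at or above their own median, and this difference was not tested. Pool 1 was the highest for 239 members (32.6%), pool 2 for 350 (47.7%) and pool 3 for 144 (19.6%), near the shares of 30.4%, 48.1% and 21.5% over all listed circRNAs. Relative to pool 1 the median member lay at 0.20 in pool 2 and at -0.21 in pool 3 (log2), and the median listed circRNA at 0.23 and -0.07.

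The largest ratios between pools among members at or above that median were those of 5 circles. LOC410393, an alkaline phosphatase, had 1748, 84.4 and 1034 SRPBM, a ratio of 20.7, from an mRNA below 1 FPKM (0.39, 0.29 and 0.44). The low pool was pool 2 for the circle and for the mRNA. LOC411038, a Med12-like subunit of the Mediator complex of transcription, had 798, 2412 and 272 SRPBM (ratio 8.88), and LOC726842, a T-box factor named for optomotor-blind, had 917, 3112 and 407 SRPBM (ratio 7.64). Both were highest in pool 2, whereas their mRNAs differed far less, at 6.50, 10.2 and 9.92 FPKM for LOC411038 and 8.98, 8.08 and 10.1 FPKM for LOC726842. LOC408583, a calponin homology domain protein, had 4629, 615 and 1306 SRPBM (ratio 7.53) with an mRNA of 137, 151 and 130 FPKM. LOC100578423 was the fifth, with a ratio of 7.48 and an mRNA of 5.15, 4.55 and 5.17 FPKM. These last 2 circles were highest in pool 1, the pool with the higher summed muscle and gut markers. Their host mRNAs were highest in pool 2 for LOC408583 and in pool 3 for LOC100578423. The part of other tissue in these circles was not tested.

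**Figure D5:**
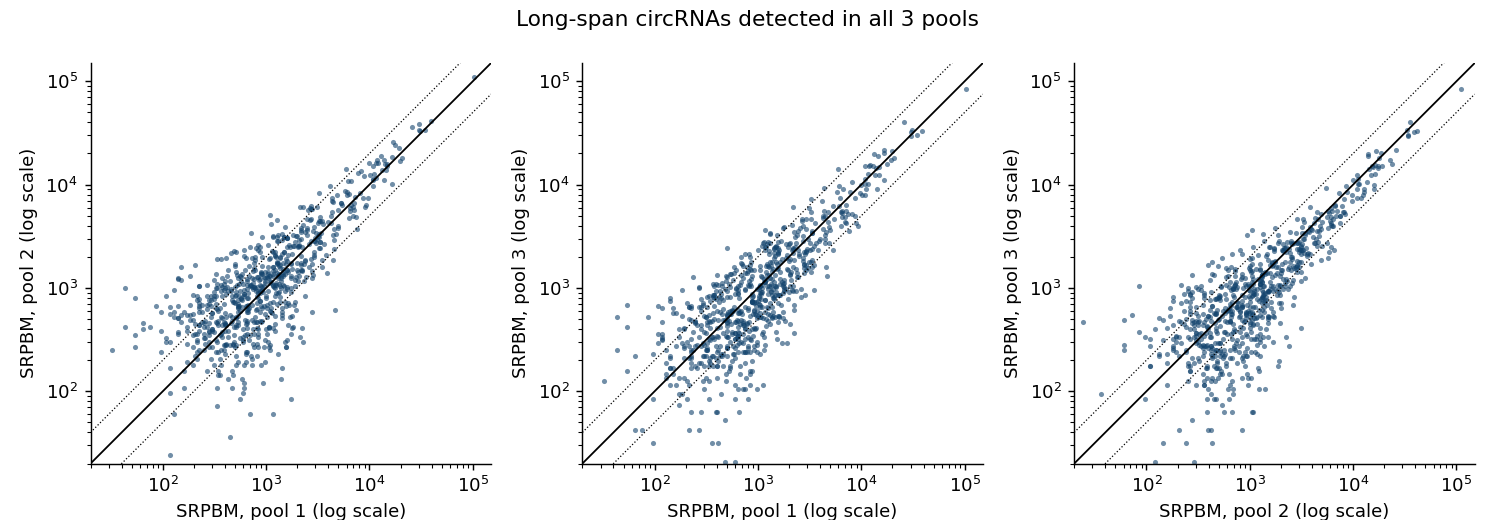
SRPBM of the 733 long-span circRNAs detected in all 3 pools, for each pair of pools (both axes log scale), one point per circRNA. The solid line marks equal values and the dotted lines a 2-fold difference. Points close in on the solid line at high SRPBM, where the 15 highest members differ by at most 1.56 times.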

How the data were processed

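Per the labels' protocols, total RNA was depleted of rRNA, digested with RNase R for the circRNA libraries and made into directional libraries. The circRNA table holds a normalised signal, SRPBM, deposited by the authors per junction and library, with position, strand and source gene. The RNA-seq table holds FPKM values deposited by the authors per gene, with biotype and position. The submitters' processing notes name HTSeq 0.6.1, TopHat2 2.0.9, Bowtie2 2.0.6 and Bowtie, with no roles. The circRNA caller and the genome build are not stated in the sources used here, so positions are those of the deposited tables. No whole-read counts were recovered from SRPBM, and no count model was used.

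Spans, classes and ends were computed in Python 3.11.15 with pandas 2.3.3, numpy 2.4.6 and scipy 1.17.1. Class differences were taken in each library and tested by exact sign-flip permutation over 3 pools, two-sided, 4 comparisons in all, each with p = 0.25 before and after Benjamini-Hochberg adjustment. FPKM was put on the log2(FPKM + 1) scale with no filter. The class difference in level and the absence of a difference in detection were checked on simulated tables, and the sign-flip test on set values. The other steps were not checked in this way. Members and lists were chosen with earlier results of these data known. The text names the 15 members with the highest mean, the 10 hosts with the most members, the 5 longest and the 5 most variable members, and the 3 leading hosts of each group. Values for other circles of these hosts, such as those of AChE-2 and LOC411586, the highest members seen in 1 pool, and the edges most used, were chosen after their values were seen. Without a strand rule for counting, FPKM of overlapping genes is uncertain.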

Additional observations from a re-analysis of the deposited data

How the results depend on the processing

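All 35 recomputed differences between long-span circRNAs or hosts and their comparison classes kept their negative direction, and p stayed at 0.25 with 3 pools and 0.5 with 2, the smallest values possible. Leaving out 1 pool gave -0.44 to -0.37 (log2) for the level, -4.37 to -3.88 points for detection, -1.09 to -1.01 within hosts and -0.54 to -0.51 for host mRNA. Of 34 other values recomputed, 12 moved, by more than the SD over pools, out of the Wilson interval, or for counts by over 1.5 times. With spans above 20000 bases there were 1413 members in place of 2396, holding 6.91% of summed SRPBM in place of 12.8%, with 28.6% detected in all 3 pools in place of 30.6%, 226 in place of 423 differing 2-fold or more, and rho against host mRNA 0.0247 in place of 0.0530. The counts and the summed share cover fewer members here. Why the share detected in all 3 pools and the rho changed was not tested. Leaving out the highest member, a choice made after the data were seen, gave 12.1% of summed SRPBM. The highest member of each host gave a rho of 0.107. With 1 pool left out, 293 to 353 members differed 2-fold or more, 35.4% to 36.9% of those detected in both pools in place of 57.7%. A 3-fold limit left 226 members, and a level at or above the median left 162. With 1 pool left out, 34.6% to 39.9% of members were detected in both remaining pools, as fewer pools must each detect a member. Adding junctions with several source genes, also chosen later, gave 2497 members and the same directions.

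No paired analysis was possible because no groups of samples were compared, so a replicate block had nothing to add to class differences already taken inside each library. The sequence at the ends of the members was not analysed here, since no genome of the files' build was used. Low SRPBM values rest on few steps (the median detected member stood at 28 to 43 steps), and a member listed at 0 in a pool was not detected at that depth.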

Other observations

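Some members differed by a few bases only. There were 62 members, in 24 hosts, that lay within 10 bases of another member at both ends. Of these, 29 (46.8%) were detected in all 3 pools, against 30.6% of all members, a difference that was not tested. In LOC724835, an uncharacterized protein with 18 members, circles ending at LG1:18865783 began at 18840492, 18840504 and 18840515, with mean SRPBM of 3182, 1448 and 2245. The most used 3′ edges of members beside that of LOC412993 were this one, LG4:4194650 in LOC411046 and LG1:28622237 in LOC725081, with 6 members each. Spans of 180000 bases or more were listed for 14 circRNAs, of which 11 were members. No source used here says whether the authors' caller set an upper limit on span.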
